A study of Mus musculus with 8 samples.

Results

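The integrated stress response was followed through 10 genes, Ddit3, Atf4, Atf3, Trib3, Chac1, Asns, Sesn2, Ppp1r15a, Psat1 and Nupr1, in mouse primary hepatocytes, which carry out most of the liver's metabolism. The genes were chosen by name, and every probe set whose only platform symbol was one of these names was taken, which gave 18 of the 45101 probe sets and 10 of the 18193 genes with a probe set of their own symbol on the array. The cells came from wild-type mice (WT) and from mice lacking transglutaminase 2 (KO, the TG2KO of the labels), the protein-crosslinking enzyme encoded by Tgm2, both on a C57BL6/129SVJ background. They were incubated for 15 h, with 100 mM ethanol or with none. The 4 groups were therefore untreated WT, ethanol-treated WT, untreated KO and ethanol-treated KO, each with 2 one-colour Affymetrix arrays, A and B, and the study asked how the enzyme acts on Sp1, a transcription factor, when the liver is injured. The labels name no tissue-specific driver for the deletion. The sex and age of the mice, and whether A and B were separate animals or cultures, were not stated in the labels. A p-value here therefore rests only on how far arrays of the same group differ, which may be technical. That spread was pooled over the 4 groups and moderated by the spread of other probe sets.

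The integrated stress response is a shared answer to several kinds of stress. Kinases that sense unfolded protein in the endoplasmic reticulum, missing amino acids, haem shortage or double-stranded RNA phosphorylate the translation factor eIF2alpha, which slows most protein synthesis while the mRNA of the transcription factor ATF4 is translated more. ATF4 then raises genes for amino acid synthesis and transport, for antioxidant defence and, through CHOP, the product of Ddit3, for cell death, and in the liver the pathway is known from amino acid limitation, secretory overload and toxic injury. Because ATF4 is controlled largely at translation, the level of Atf4 mRNA reports on it only in part.

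ATF4 binds with C/EBP partners at a composite element whose core is TGATGNAA, and the 250 bases before each member's start site were searched for these letters on both strands in the RefSeq promoter table of GRCm38.p6. The core was present in the windows of 4 of the 10 members, against 3.45% of all 32851 windows of that length and 3.91% of the 27025 genes in the table. All 4 matches are shown because Chac1, Atf3 and Asns carry the comparisons described further on and Nupr1 completes the set: Chac1 with its whole 250-base window, the others with a stretch of 60 bases (Atf3, Nupr1) or 49 bases (Asns) around the match. Each is written 5′ to 3′ on the gene's own strand, with the matched letters in capitals. TTGCATCA is the core read on the opposite strand.
Atf3, chr1:191183410-191183469, minus strand: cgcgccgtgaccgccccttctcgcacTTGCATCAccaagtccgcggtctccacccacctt
Chac1, chr2:119350992-119351241, plus strand: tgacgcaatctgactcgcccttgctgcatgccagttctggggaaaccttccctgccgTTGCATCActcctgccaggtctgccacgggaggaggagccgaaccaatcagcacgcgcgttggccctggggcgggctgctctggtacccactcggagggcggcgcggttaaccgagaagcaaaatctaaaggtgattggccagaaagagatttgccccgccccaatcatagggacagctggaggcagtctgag
Asns, chr6:7693210-7693258, minus strand: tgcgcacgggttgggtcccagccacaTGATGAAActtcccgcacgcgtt
Nupr1, chr7:126625547-126625606, minus strand: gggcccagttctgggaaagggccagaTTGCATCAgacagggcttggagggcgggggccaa
The match began 110 bases before the start in Atf3 and in Nupr1, 193 bases before it in Chac1 and 23 bases before it in Asns. The ER stress response element, searched on both strands, was present in 0.113% of all windows and in none of the 10 members' windows, which says only that these letters are not in that stretch. A match of letters is a description of the sequence and not evidence of binding.

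Deposited intensities were brought to a common distribution by quantile normalisation, and all levels below are on that linear scale in arbitrary units, which allows comparison between arrays for 1 probe set but not between genes. Differences are on the log2(intensity + 16) scale, which understates the change of a dim gene, with the standard error (SE) of a limma fit over all 8 arrays, and a probe set was called at a Benjamini-Hochberg adjusted p under 0.05 among the 19814 probe sets tested. Tgm2 itself read 16656 to 16836 on the WT arrays and 368 to 704 on the KO arrays. Before normalisation the trimmed mean intensity was 99.1 and 102 on the untreated KO arrays and 104 on array A of ethanol-treated KO, against 199.6 to 298.9 on the other 5, so without ethanol brightness and genotype cannot be told apart. The bioC spike-in control divided by bioB was 0.94 to 1.06 on array A of untreated WT, of ethanol-treated WT and of ethanol-treated KO and 2.59 to 3.14 on the other 5. Within each class of that ratio, every called member kept its direction wherever both groups had an array. The 3′ to 5′ ratio of the Pcx control probes, a sign of RNA length, was 10.02 and 16.8 in untreated WT, 26.7 and 44.5 in WT given ethanol, 10.6 and 8.69 in untreated KO, and 4.91 and 5.45 in KO given ethanol, while that of Gapdh lay between 0.771 and 0.977 throughout, and the part of this difference in the results was not tested. The labels' titles put both B ethanol arrays at 100 mM, but their treatment text reads as an untreated incubation. When these arrays were counted as untreated, the number of called members was 0 for ethanol in WT, 0 for ethanol in KO, 6 for KO against WT without ethanol, 1 with ethanol and 0 for the difference between the ethanol effects, and at an unadjusted limma p under 0.05 the first, second and last of these counts were also 0.

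The summed level of 5 measured hepatocyte markers was 46289 to 53066 over all arrays. That sum came mostly from Alb, Apoa1 and Ttr, and single markers differed between genotypes. Every KO array was below every WT array for Cps1 (3000 to 3549 against 4524 to 5562) and for Apoa1 (12493 to 15192 against 15904.5 to 18006). Ttr was higher on every KO array (14991 to 17186 against 14303 to 14908), and Alb overlapped. Tat was lower in KO at each ethanol level, with 452 and 512 against 712 and 710 without ethanol. Of markers of other liver cells, the sum of 6 Kupffer cell and macrophage genes was 582 to 633 in WT and 422 to 558 in KO, that of 5 endothelial genes 303 to 420 in WT and 388 to 518 in KO, and that of 5 stellate cell and fibroblast genes 59.9 to 158 throughout. Neutrophil genes, 3 measured, summed to 145 to 207, and the 3 measured lymphocyte genes had means below the filter on dim probe sets. The sum of 4 cholangiocyte genes was 312 to 460 in WT and 768 to 1118 in KO, of which Sox9 alone gave 232 to 323 in WT and 686 to 1049 in KO, while Krt7 and Krt19 had means below that filter. The part of these markers in the results was not tested, and in bulk RNA fewer cells of a type and less RNA per cell cannot be told apart.

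On the brightest probe sets Ddit3 was called higher after ethanol in both genotypes, and Chac1, Trib3, Ppp1r15a, Atf3, Sesn2 and Asns in KO only. A call in KO only did not by itself mean a larger rise there, as the Sesn2 difference was 0.41 in both genotypes. At an unadjusted limma p under 0.05, 6 of the 10 members were higher in WT and 7 in KO, and none was lower, so 6 and 7 passed in either direction. Of all 19814 tested probe sets, 3732 and 7189 passed in either direction. The KO calls of Trib3, Sesn2 and Asns were not shared by their other tested probe sets, at 0.17, 0.02 and 0.16. KO cells had more Atf3, Ddit3 and Ppp1r15a mRNA than WT cells with and without ethanol and less Asns mRNA. In WT, 1 of the 10 members was called after ethanol, and it was higher, where 1.67% of all tested probe sets were called higher and 5.58% were called in either direction. In KO, 7 of 10 were called higher, where 11.4% of all tested probe sets were called higher and 22.2% in either direction, 10.8% being lower. On the brightest probe sets no member was called lower after ethanol in either genotype by limma, adjusted or at an unadjusted p under 0.05. The second Nupr1 probe set was called lower in KO, at -1.13 (limma adjusted p = 0.0482). The median log2 difference of the 10 members was 0.32 in WT and 0.55 in KO, against 0.014 and -0.0054 over all tested probe sets. Without ethanol, KO exceeded WT in 4 called members and was below it in 2, where 15.3% of all tested probe sets were called higher, 16.9% lower and 32.3% in either direction. With ethanol, 6 members were called higher in KO and 2 lower, where 14% of all tested probe sets were called higher, 15.1% lower and 29.1% in either direction. The members' median was 0.19 without and 0.50 with ethanol, against -0.035 and -0.047 over all tested probe sets. Members whose 2 groups did not overlap numbered 6 above and 2 below after ethanol in WT, where 27.7% and 25.4% of all tested probe sets did so, and 7 above and 0 below in KO, where the background was 29.5% and 30.5%. For KO against WT they numbered 6 above and 3 below without ethanol (background 33.7% and 37.4%) and 7 above and 3 below with it (background 27% and 33.9%). These 4 comparisons share groups pairwise, so their counts are not independent of each other.

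**Figure D1:**
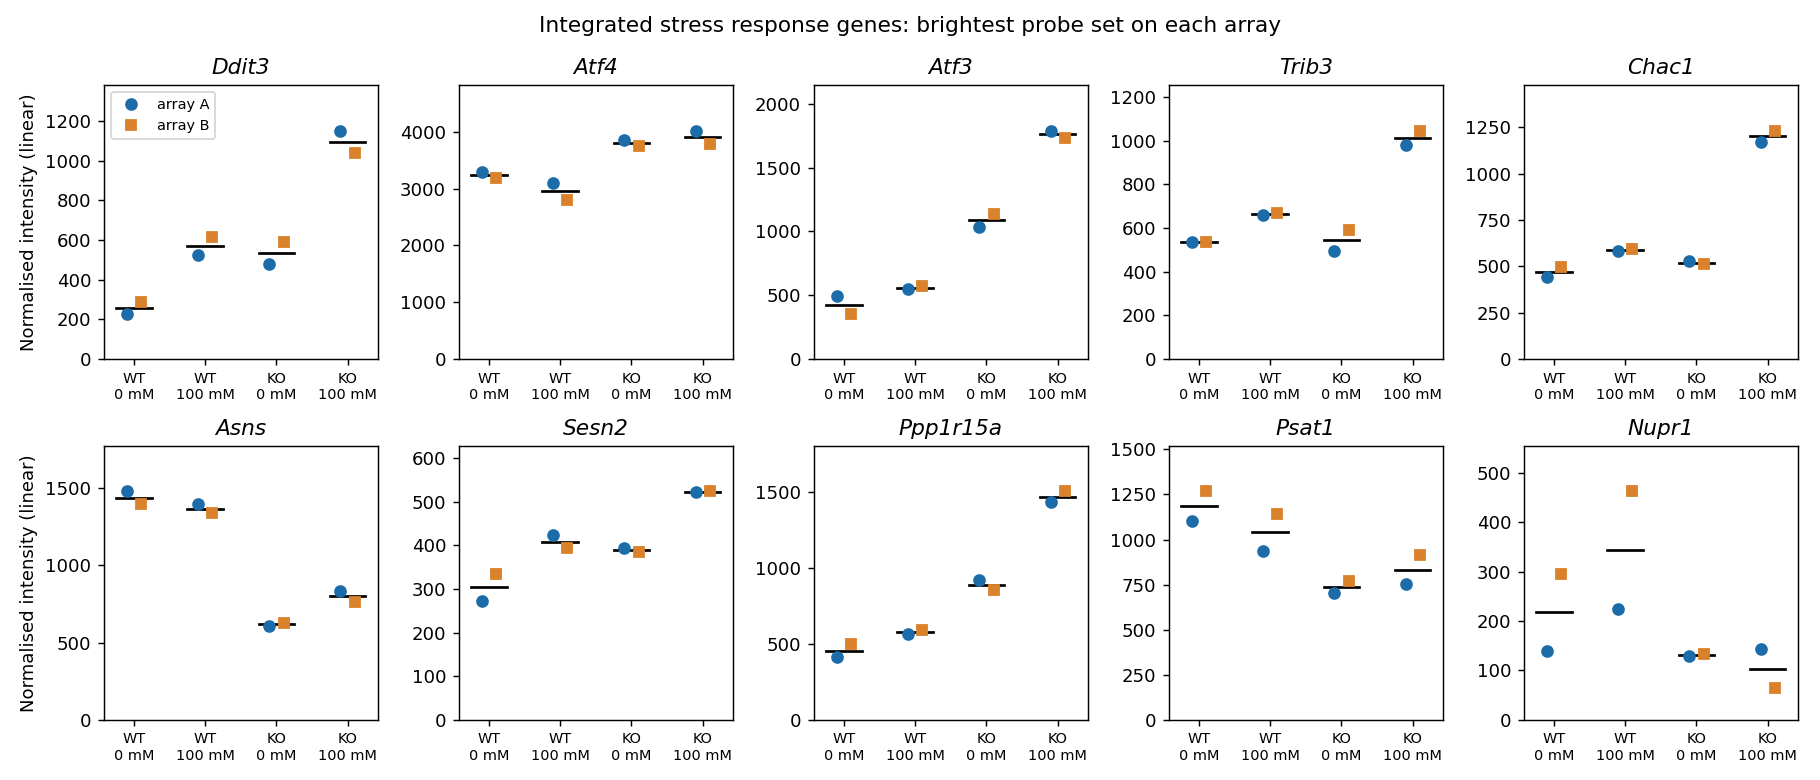
Normalised intensity (arbitrary units, linear axes from 0, a scale for each gene) of the brightest probe set of each of the 10 genes on each of the 8 arrays, by group, with A as circles and B as squares and a bar at the group mean. Ddit3, Atf3, Chac1 and Ppp1r15a are highest on both ethanol-treated KO arrays, and Asns is lower on all 4 KO arrays than on any WT array.

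Ddit3, which encodes the pro-apoptotic factor CHOP, was raised by ethanol in both genotypes and was higher in KO at either ethanol level. Its normalised intensity was 225 on array A and 286 on array B of untreated WT, 527 and 617 in WT given ethanol, 480 and 591 in untreated KO, and 1152 and 1037 in KO given ethanol. Both ethanol-treated arrays stood above both untreated arrays in each genotype, and the ethanol-treated WT and untreated KO arrays interleaved. The log2 difference after ethanol was 1.12 ± 0.15 (SE) in WT (limma adjusted p = 0.003) and 1.02 ± 0.15 in KO (adjusted p = 0.00202). Matched by letter, the difference was 1.17 between the A arrays and 1.07 between the B arrays in WT, and 1.24 and 0.80 in KO. The labels do not say that arrays of the same letter are pairs. The ethanol effect in KO minus that in WT was -0.11 ± 0.21 (adjusted p = 0.806). Against WT, KO was higher by 1.03 ± 0.15 without ethanol (adjusted p = 0.000783) and by 0.92 ± 0.15 with it (adjusted p = 0.00168). On the only bright ethanol-treated KO array, B, the level was 1037 against 617 on array B of ethanol-treated WT. The second Ddit3 probe set had a mean of 18.5, below the filter at 26.2, and was not tested.

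Atf3, a stress-induced transcription factor that lies downstream of ATF4, was higher in KO than in WT at both ethanol levels. It read 497 and 350 in untreated WT, 550 and 570 in WT given ethanol, 1033 and 1139 in untreated KO, and 1790 and 1736 in KO given ethanol. No KO array overlapped any WT array. KO exceeded WT by 1.34 ± 0.14 without ethanol (limma adjusted p = 0.000135) and by 1.63 ± 0.14 in its presence (adjusted p = 4.78e-05). After ethanol the difference was 0.69 ± 0.14 in KO (adjusted p = 0.00888) and 0.41 ± 0.14 in WT (adjusted p = 0.146). The 2 ethanol effects differed by 0.28 ± 0.20 (adjusted p = 0.442). The KO call was lost without array A of untreated KO, at 0.62 (adjusted p = 0.0793). The WT value was 0.66 (adjusted p = 0.0347) without array A of untreated WT and 0.17 (adjusted p = 0.615) without array B of that group.

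Atf4, the central transcription factor of the response, moved little. Its brightest probe set read 3286 and 3184 in untreated WT, 3096 and 2806 in WT given ethanol, 3860 and 3744 in untreated KO, and 4018 and 3783 in KO given ethanol. All 4 KO arrays lay above all 4 WT arrays, and the ethanol-treated and untreated KO arrays overlapped. The ethanol difference was -0.13 ± 0.073 in WT (limma adjusted p = 0.386) and 0.036 ± 0.073 in KO (adjusted p = 0.753). KO exceeded WT by 0.40 ± 0.073 with ethanol (adjusted p = 0.00307) and by 0.23 ± 0.073 without it (adjusted p = 0.0359). The call without ethanol was lost when array A or B of either untreated group was left out, with values of 0.21 to 0.25 and adjusted p of 0.111 to 0.186. The second tested Atf4 probe set gave 0.28 without ethanol (adjusted p = 0.122) and 0.10 with it (adjusted p = 0.609), so neither genotype call was shared by both probe sets. Another Atf4 probe set, with a mean of 8.47, was below the filter.

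Trib3 and Ppp1r15a encode inhibitors that act back on the response, Trib3 as a pseudokinase that binds ATF4 and Ppp1r15a as the stress-induced subunit, GADD34, of the phosphatase that removes the phosphate from eIF2alpha. Trib3 read 536 on both untreated WT arrays, 661 and 667 in WT given ethanol, 496 and 591 in untreated KO, and 980 and 1047 in KO given ethanol. Both ethanol-treated KO arrays stood apart above all the others, and without ethanol the genotypes overlapped. Ethanol raised it by 0.88 ± 0.10 in KO (limma adjusted p = 0.000821), while the difference in WT was 0.30 ± 0.10 (adjusted p = 0.146). KO exceeded WT by 0.60 ± 0.10 with ethanol (adjusted p = 0.00255) and by 0.01 ± 0.10 without it (adjusted p = 0.944). The difference between the ethanol effects was 0.58 ± 0.15 (adjusted p = 0.0534). It passed the threshold without array B of ethanol-treated KO, at 0.54 (adjusted p = 0.0377), and in 3 other alternatives. The second Trib3 probe set read 448 and 461, 681 and 585, 582 and 511, and 502 and 758 over the same groups. There array A of ethanol-treated KO was below both ethanol-treated WT arrays, the ethanol difference in KO was 0.17 ± 0.17 (adjusted p = 0.504), and KO minus WT with ethanol was -0.03 ± 0.17 (adjusted p = 0.915).

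Ppp1r15a had a single probe set and read 415 and 497 in untreated WT, 563 and 589 in WT given ethanol, 920 and 856 in untreated KO, and 1431 and 1504 in KO given ethanol. The groups did not overlap at any step of that order. KO was higher by 0.94 ± 0.10 without ethanol (limma adjusted p = 0.000174) and by 1.33 ± 0.10 in its presence (adjusted p = 2.53e-05). Ethanol raised it by 0.71 ± 0.10 in KO (adjusted p = 0.00203). The WT difference was 0.33 ± 0.10 (adjusted p = 0.112), and the effects differed by 0.38 ± 0.15 (adjusted p = 0.167).

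Chac1, which encodes a glutathione-degrading enzyme downstream of ATF4 and CHOP, was the member whose ethanol effect differed between genotypes by the test of that difference. It read 445 and 496 in untreated WT, 585 and 592 in WT given ethanol, 528 and 513 in untreated KO, and 1170 and 1232 in KO given ethanol. Both ethanol-treated KO arrays were far above the other 6, which spanned 445 to 592. Ethanol raised it by 1.18 ± 0.095 in KO (limma adjusted p = 0.000237), and the difference in WT was 0.32 ± 0.095 (adjusted p = 0.0958). The 2 ethanol effects differed by 0.87 ± 0.13 (adjusted p = 0.00863), where 5.35% of all tested probe sets were called with 3.57% called higher in KO and 1.78% lower. No other member was called in that comparison, where 4 of 10 members had a positive difference at an unadjusted p under 0.05 and none a negative one. Of all 19814 tested probe sets, 4457 passed that unadjusted threshold in either direction. Without array A of untreated KO the difference was 0.89 (adjusted p = 0.0534), and without array B of that group it was 0.85 (adjusted p = 0.0548). KO minus WT was 0.14 ± 0.095 without ethanol (adjusted p = 0.289) and 1.01 ± 0.095 with it (adjusted p = 7.17e-05). On the dim array A of ethanol-treated KO the rise over the untreated KO mean was 1.14, and on the bright array B it was 1.22.

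Asns, asparagine synthetase, is a classical amino acid response gene and went against the genotype direction of Ddit3 and Atf3. It read 1478 and 1398 in untreated WT, 1395 and 1337 in WT given ethanol, 609 and 626 in untreated KO, and 835 and 765 in KO given ethanol. Every KO array was below every WT array. KO was lower, at -1.20 ± 0.085 without ethanol (limma adjusted p = 1.45e-05) and at -0.76 ± 0.085 in its presence (adjusted p = 2e-04). The second Asns probe set gave -1.42 ± 0.099 (adjusted p = 1.29e-05) and -1.34 ± 0.099 (adjusted p = 1.71e-05). Ethanol raised the brightest probe set by 0.36 ± 0.085 in KO (adjusted p = 0.0153), and the WT difference was -0.07 ± 0.085 (adjusted p = 0.747). This ethanol call was lost without array A of untreated KO, at 0.35 (adjusted p = 0.0989), without array B, at 0.39 (adjusted p = 0.0728), and on the second probe set, at 0.16 (adjusted p = 0.28). The difference between the ethanol effects was 0.44 ± 0.12 (adjusted p = 0.0691), and 0.50 (adjusted p = 0.0161) without array B of ethanol-treated KO.

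Psat1, which encodes an enzyme of serine synthesis, was also lower in KO. It read 1104 and 1267 in untreated WT, 936 and 1144 in WT given ethanol, 702 and 767 in untreated KO, and 752 and 913 in KO given ethanol. Every KO array lay below every WT array, and within a genotype the ethanol-treated and untreated arrays overlapped. KO was lower, at -0.68 ± 0.13 without ethanol (limma adjusted p = 0.00376), and in its presence the difference was -0.32 ± 0.13 (adjusted p = 0.103), which ran from -0.17 (adjusted p = 0.495, without array B of ethanol-treated WT) and -0.18 (adjusted p = 0.39, without array A of ethanol-treated KO) to -0.46 without array A of ethanol-treated WT (adjusted p = 0.0733) or array B of ethanol-treated KO (adjusted p = 0.0307). On its second probe set KO was lower in both, at -0.69 ± 0.095 (adjusted p = 0.00059) and -0.83 ± 0.095 (adjusted p = 0.000232). The ethanol difference of the brightest probe set was -0.19 ± 0.13 in WT (adjusted p = 0.519) and 0.17 ± 0.13 in KO (adjusted p = 0.38).

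Sesn2, a stress-inducible inhibitor of mTORC1 signalling, differed between its probe sets. The brighter read 273 and 334 in untreated WT, 423 and 393 in WT given ethanol, 395 and 385 in untreated KO, and 522 and 524 in KO given ethanol. In each genotype both ethanol-treated arrays exceeded both untreated arrays. The ethanol difference was 0.41 ± 0.12 in KO (limma adjusted p = 0.0392) and 0.41 ± 0.12 in WT (adjusted p = 0.0888). The difference between these effects was -0.004 ± 0.17 (adjusted p = 0.992). The KO call was lost without any 1 of 6 arrays, A or B of untreated KO, ethanol-treated KO or ethanol-treated WT, with values of 0.39 to 0.43 and adjusted p of 0.0514 to 0.168. KO minus WT was 0.35 ± 0.12 both without ethanol (adjusted p = 0.0516) and with it (adjusted p = 0.0581). The value without ethanol passed when array B of untreated WT (0.49, adjusted p = 0.0393), array A of ethanol-treated KO (0.36, adjusted p = 0.0392) or array B of ethanol-treated KO (0.35, adjusted p = 0.0395) was left out, and was 0.22 (adjusted p = 0.337) without array A of untreated WT. The dimmer Sesn2 probe set read 140 and 145, 103 and 107, 249 and 212, and 191 and 286 over the same groups. There KO exceeded WT by 0.63 ± 0.20 without ethanol (adjusted p = 0.0331) and by 1.04 ± 0.20 with it (adjusted p = 0.00357), and the ethanol difference was -0.39 ± 0.20 in WT (adjusted p = 0.335) and 0.02 ± 0.20 in KO (adjusted p = 0.946).

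Nupr1, a small stress-induced chromatin protein, had the widest spread between A and B arrays. Its brighter probe set read 140 and 296 in untreated WT, 224 and 463 in WT given ethanol, 129 and 132 in untreated KO, and 143 and 64.9 in KO given ethanol. The KO arrays lay below the WT arrays at each ethanol level, narrowly without ethanol, and with ethanol the gap was widest on array B, with 463 against 64.9. KO was lower, at -1.58 ± 0.42 with ethanol (limma adjusted p = 0.0193). Leaving out array B of ethanol-treated KO gave -1.10 (adjusted p = 0.0823), and leaving out array B of ethanol-treated WT gave -1.07 (adjusted p = 0.152). KO minus WT without ethanol was -0.59 ± 0.42 (adjusted p = 0.325), and the ethanol differences were 0.62 ± 0.42 in WT (adjusted p = 0.505) and -0.37 ± 0.42 in KO (adjusted p = 0.554). The second Nupr1 probe set read 233 and 257, 259 and 285, 136 and 96.9, and 22.2 and 78.3. On it every KO array was below every WT array, and KO was lower, at -2.26 ± 0.35 with ethanol (adjusted p = 0.00141) and at -0.99 ± 0.35 without it (adjusted p = 0.0578). Its level also fell with ethanol in KO by 1.13 ± 0.35 on the log2 scale (adjusted p = 0.0482).

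**Figure D2:**
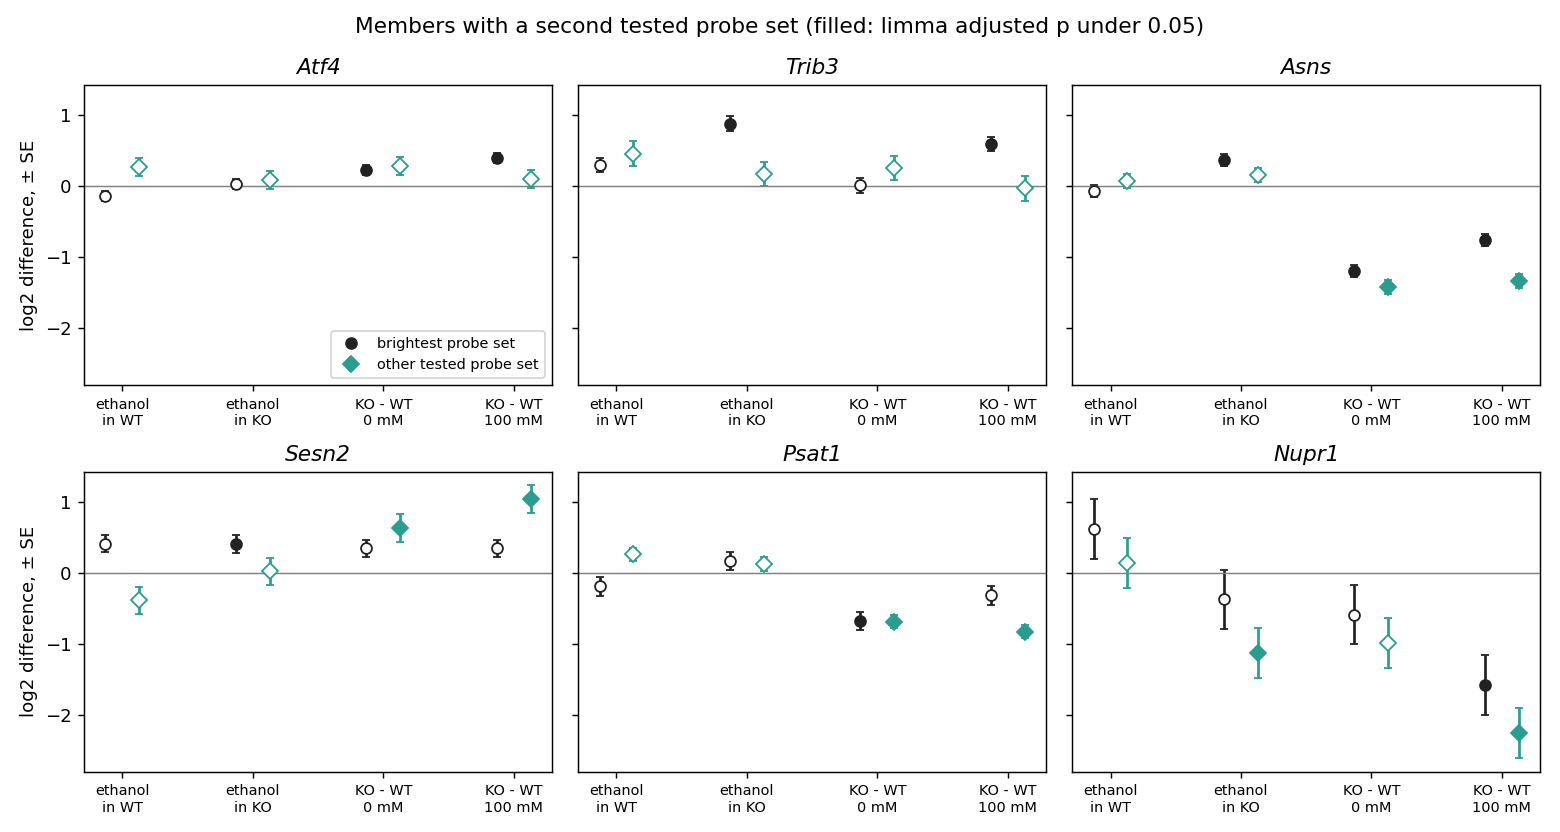
Log2 differences with SE for the 6 members with a second tested probe set, brightest probe set as circles and the other as diamonds, filled where the limma adjusted p was under 0.05. Both probe sets of Asns are lower in KO at either ethanol level, while the Trib3 call after ethanol in KO (0.88) is not shared by its other probe set (0.17).

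The level patterns over the 8 arrays of Ddit3 and Asns were set against all 10740 genes with a tested probe set, as Pearson correlations of log2 values. Closest to Ddit3 were Ets2 (r = 0.976), Ces2a (0.975), Atp6v1b2 (0.971), Tbc1d31 (0.969) and Dgat2 (0.968). Closest to Asns were Tmem37 (0.997), Pigu (0.996), Apoc2 (0.993), Dnmt1 (0.993) and Gstm3 (0.992). No member was among either set of 5. These values describe 8 arrays that share 4 groups.

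Upstream of the members, the kinases that phosphorylate eIF2alpha differed in what they did. Eif2ak3, which encodes PERK, the kinase of the endoplasmic reticulum, read 338 and 290 in untreated WT, 331 and 304 in WT given ethanol, 760 and 809 in untreated KO, and 682 and 738 in KO given ethanol. All KO arrays were above all WT arrays. KO was higher by 1.28 ± 0.11 without ethanol (limma adjusted p = 5.09e-05) and by 1.12 ± 0.11 with it (adjusted p = 0.000112), and the ethanol differences were 0.02 ± 0.11 in WT (adjusted p = 0.969) and -0.14 ± 0.11 in KO (adjusted p = 0.4). Eif2ak2, the kinase PKR that senses double-stranded RNA, read 462 and 429, 311 and 324, 688 and 726, and 297 and 321 over the same groups. Untreated KO was highest, and the ethanol-treated arrays of both genotypes overlapped. It fell after ethanol in KO by 1.15 on the log2 scale (SE 0.11, adjusted p = 0.000355) and in WT by 0.47 (adjusted p = 0.0356), and the effects differed by -0.69 ± 0.15 (adjusted p = 0.0323). Both the WT call and that of the difference were lost without array A or B of untreated WT, ethanol-treated WT or untreated KO, with adjusted p up to 0.253 and 0.141 and values over the 8 arrays left out in turn of -0.52 to -0.42 and -0.74 to -0.63. KO was higher by 0.65 ± 0.11 without ethanol (adjusted p = 0.00154). Eif2ak1, the haem-regulated kinase HRI, had differences from -0.14 to 0.07 over the 4 comparisons, and Eif2ak4, the amino acid sensor GCN2, from -0.55 to 0.55, none called, with adjusted p of 0.0851 or more. Of the 15 measured genes for the kinases, eIF2, eIF2B and phosphatase subunits, 5 were called higher and 2 lower in untreated KO against WT, with a median of 0.15, where 15.3% of all tested probe sets were higher and 16.9% lower, and 2 higher and 4 lower after ethanol in KO, with a median of -0.16, where 11.4% were higher and 10.8% lower. Among them Eif2b4, a subunit of the exchange factor that recharges eIF2, was lower in untreated KO, at -0.94 ± 0.10 (adjusted p = 0.000156) and rose by 0.90 ± 0.10 after ethanol in KO (adjusted p = 0.000699), with a WT difference of 0.33 ± 0.10 (adjusted p = 0.103). Ppp1r15b, the constitutive counterpart of Ppp1r15a, was higher in untreated KO by 0.56 ± 0.081 (adjusted p = 0.000767).

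Other factors and targets of ATF4 and CHOP, 19 measured of 20, had 8 members higher and 2 lower in untreated KO against WT, with a median of 0.20 (background 15.3% and 16.9% of all tested probe sets), and 6 higher and 3 lower with ethanol, with a median of 0.14 (background 14% and 15.1%). Ddit4, the mTORC1 inhibitor REDD1, read 1279 and 1068 in untreated WT, 1266 and 1151 in WT given ethanol, 4977 and 5043 in untreated KO, and 3768 and 3831 in KO given ethanol. Ero1a, the oxidase that drives disulphide formation in the endoplasmic reticulum, read 1999 and 1929, 1285 and 1137, 7279 and 7374, and 6549 and 6490. Neither gene had an overlap between genotypes. Ddit4 was higher in KO by 2.08 ± 0.093 in untreated cells (limma adjusted p = 7.47e-07) and by 1.64 ± 0.093 in treated ones (adjusted p = 3.56e-06), and Ero1a by 1.89 ± 0.074 (adjusted p = 3.11e-07) and 2.42 ± 0.074 (adjusted p = 7.98e-08). Hmox1, haem oxygenase, was higher in KO by 0.90 ± 0.077 and 1.37 ± 0.077 (adjusted p = 4.1e-05 and 3.47e-06), and Txnip, an inhibitor of thioredoxin, by 1.24 ± 0.12 and 1.76 ± 0.12 (adjusted p = 8.59e-05 and 1.07e-05). After ethanol, 2 of the 19 rose and 2 fell in WT (background 1.67% and 3.91%), and 5 rose and 3 fell in KO (background 11.4% and 10.8%). Atf5, a transcription factor related to ATF4, rose in both, by 0.71 ± 0.074 in WT (adjusted p = 0.00107) and by 0.56 ± 0.074 in KO (adjusted p = 0.00134), while Ero1a fell in WT by 0.69 on the log2 scale (adjusted p = 0.00119). Atf5 read 1677 and 1784 in untreated WT, 2759 and 2905 in WT given ethanol, 1043 and 1016 in untreated KO, and 1501 and 1547 in KO given ethanol. Every KO array was thus below every WT array for Atf5, against the genotype direction of Ddit4, Ero1a, Hmox1 and Txnip.

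Biosynthetic genes that ATF4 also controls were in part lower in untreated KO, as Asns and Psat1 were. Of 9 measured genes for serine, one-carbon, proline and transsulfuration enzymes, 5 were called lower and 1 higher there, with a median of -0.41, where 16.9% of all tested probe sets were lower and 15.3% higher. Phgdh, which catalyses the first step of serine synthesis, read 589 and 511 in untreated WT, 578 and 438 in WT given ethanol, 254 and 273 in untreated KO, and 584 and 384 in KO given ethanol. Only the untreated KO arrays stood apart, below the rest, and KO was lower, at -1.02 ± 0.20 (limma adjusted p = 0.00359). Psph, the last enzyme of that route, was lower, at -0.86 ± 0.17 (adjusted p = 0.00471). After ethanol in KO 3 of the 9 rose and none fell, adjusted or at an unadjusted limma p under 0.05, with a median of 0.30 (background 11.4% higher and 10.8% lower). With ethanol, 3 were higher and 3 lower in KO (background 14% and 15.1%). Got1, the cytosolic aspartate aminotransferase, was higher by 1.34 ± 0.11 (adjusted p = 2.65e-05), and Aldh18a1, which starts proline synthesis, was lower, at -1.05 ± 0.17 (adjusted p = 0.00187).

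Among amino acid transporters, 7 of 9 were tested, and 1 was higher and 3 lower in untreated KO against WT, where 15.3% of all tested probe sets were higher and 16.9% lower. Slc7a11, the cystine importer, read 394 and 385 in untreated WT, 461 and 444 in WT given ethanol, 171 and 166 in untreated KO, and 117 and 190 in KO given ethanol, with every KO array below every WT array. KO was lower, at -1.14 ± 0.19 without ethanol (limma adjusted p = 0.00163) and at -1.50 ± 0.19 with it (adjusted p = 0.000407). Slc38a2, a carrier of small neutral amino acids, was higher in KO by 1.07 ± 0.088 (adjusted p = 3.32e-05) and 0.78 ± 0.088 (adjusted p = 0.000208). Slc6a9, a glycine transporter, rose after ethanol in KO by 0.997 ± 0.092 (adjusted p = 0.000355) and in WT by 0.37 ± 0.092 (adjusted p = 0.0494), and the effects differed by 0.63 ± 0.13 (adjusted p = 0.0263). Its WT call and that of the difference were lost without array A or B of untreated WT, ethanol-treated WT or untreated KO, with values over the 8 arrays left out in turn of 0.28 to 0.46 and 0.54 to 0.72 and adjusted p up to 0.352 and 0.118. Slc3a2, the partner chain of Slc7a11, rose in KO by 0.62 ± 0.11 (adjusted p = 0.00407), and its WT difference was -0.0031 ± 0.11 (adjusted p = 0.993). Its untreated KO arrays read 2869.5 and 3491, below all the others, which spanned 4541 to 5319. The called difference between its ethanol effects ran from 0.48 to 0.76 with 1 array left out, and the call was lost in 7 cases. After ethanol in KO 2 of the 7 tested transporters were called higher and 0 lower, with a median of -0.083 (background 11.4% and 10.8%).

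Aminoacyl-tRNA synthetases, which charge tRNAs with amino acids, had 6 of 17 measured members called lower in untreated KO, with a median of -0.16. None was called higher, adjusted or at an unadjusted limma p under 0.05, where 16.9% of all tested probe sets were lower and 15.3% higher. With single arrays left out in turn, the calls of Vars1, Kars1 and Aars1 were lost in 4, 3 and 1 cases. Their values ran from -0.48 to -0.30, -0.40 to -0.26 and -0.49 to -0.38, and the call of Qars1 held. Qars1 was lower, at -0.64 ± 0.10 (adjusted p = 0.00121) and rose after ethanol in KO by 0.57 ± 0.10 (adjusted p = 0.00457), with a WT difference of 0.10 ± 0.10 (adjusted p = 0.715). After ethanol in KO 3 of the 17 rose and 1 fell (background 11.4% and 10.8%). Aars1 was among those that rose, by 0.56 ± 0.089 (adjusted p = 0.00287), and its WT difference was 0.35 ± 0.089 (adjusted p = 0.0533). In ethanol-treated KO against WT, 1 was higher and 4 were lower (background 14% and 15.1%).

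Chaperones of the endoplasmic reticulum and other targets of ATF6 or XBP1, the neighbouring branches of the unfolded protein response, had 4 of 16 members higher after ethanol in WT, with a median of 0.28, where 1.67% of all tested probe sets were higher, and 6 higher in KO, with a median of 0.19, where 11.4% were. None of the 16 was called lower after ethanol, and at an unadjusted limma p under 0.05 the number lower was 0 in WT and 2 in KO. Each of the 4 WT calls depended on single arrays. Those of Hspa5, Pdia6 and Dnajc3 were lost without any 1 of 6 arrays, and that of Hyou1 without array B of untreated or of ethanol-treated WT. With 1 array left out the values ran from 0.22 to 0.30 for Hspa5, 0.25 to 0.43 for Pdia6 and 0.62 to 0.93 for Hyou1. In KO, the calls of Creld2 and Pdia6 were lost without array A or B of untreated KO, and those of Sdf2l1 and Dnajc3 held. Untreated KO against WT had 1 higher and 6 lower (background 15.3% and 16.9%), and ethanol-treated KO against WT had 2 higher and 7 lower (background 14% and 15.1%). Sdf2l1, a chaperone cofactor, read 228 and 224 in untreated WT, 297 and 322 in WT given ethanol, 79.0 and 100.2 in untreated KO, and 175 and 195 in KO given ethanol. Both untreated KO arrays were lowest. It was lower in untreated KO, at -1.21 ± 0.16 (limma adjusted p = 0.000438) and rose after ethanol in KO by 0.93 ± 0.16 (adjusted p = 0.00371), with a WT difference of 0.43 ± 0.16 (adjusted p = 0.173). Dnajb9, another co-chaperone, was higher in KO by 1.02 ± 0.093 without ethanol (adjusted p = 6.03e-05) and by 0.95 ± 0.093 with it (adjusted p = 9.3e-05). Dnajc3, an inhibitor of PERK, was lower in untreated KO, at -0.53 ± 0.078 (adjusted p = 0.000852) and rose after ethanol in KO by 0.53 ± 0.078 (adjusted p = 0.0021) and in WT by 0.38 ± 0.078 (adjusted p = 0.0246), and the effects differed by 0.15 ± 0.11 (adjusted p = 0.453). The WT call was lost without array A or B of untreated WT, ethanol-treated WT or untreated KO, with values over the 8 arrays left out in turn of 0.33 to 0.43 and adjusted p up to 0.196.

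**Figure D3:**
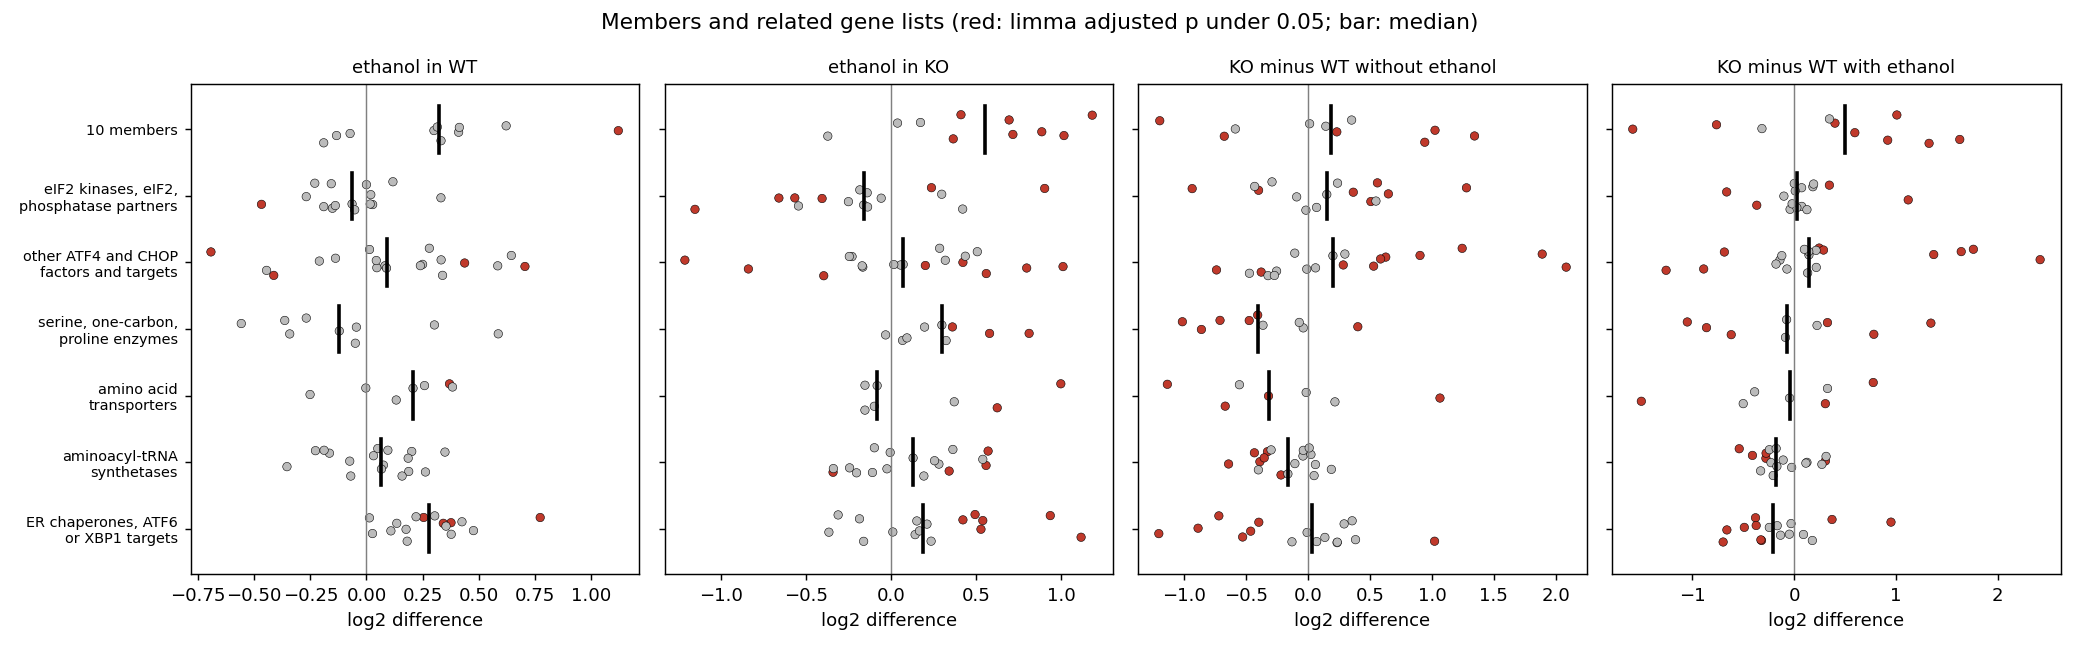
Log2 differences of the 10 members and of the tested genes of the 6 related lists in the 4 comparisons, with a bar at each median and called genes in red. The medians of the related lists run from -0.41 for the serine, one-carbon, proline and transsulfuration list in untreated KO against WT to 0.30 for the same list after ethanol in KO.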

How the data were processed

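RNA from 8 hepatocyte samples was hybridised to 1 Affymetrix array each, 2 arrays in each of 4 groups taken from sample titles. The authors deposited linear signal intensities for 45101 probe sets. Which software, scaling and genome build lay behind them is not given in the sources used, and the unit was read from the values. Of these, 64 control probe sets and those with an unusable value (5410, all on array B of ethanol-treated WT) were left out. The remaining 39627 were quantile normalised and transformed as log2(intensity + 16), and the 50% with the highest mean, 19814, were tested. limma 3.58.1 in R 4.3.3 was fitted with 4 group means and an intensity trend (4 residual and 5.43 prior degrees of freedom), two-sided, with Benjamini-Hochberg adjustment in each of 5 contrasts. The script was tested on simulated data. The number of arrays limits the precision.

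Probe sets were named through the platform annotation, with symbols updated from the RefSeq table of GRCm38.p6: 34958 had 1 symbol, 932 several and 9211 none, and 34754 single symbols matched. Each gene is given by its brightest probe set by mean. No member probe set had an unusable value, and 16 of the 18 passed the filter. Of 91 genes on the related lists 85 were measured and 83 tested, and for Slc7a1 and Mars1 the brightest probe set was unusable. All members were named. Of each related list, up to 4 genes with the smallest adjusted p in a contrast and the 4 eIF2alpha kinases could be named, and of these mainly genes whose call held in every alternative other than relabelling the B ethanol arrays are described. The 10 members and lists were chosen with earlier results of these data known. Alternatives covered scaling, offset, filter, variance prior, samples in the fit, a replicate block, unusable values, the doubtful B arrays, spike-in class, dim arrays, other probe sets and each array left out. Other probe sets were tried for the members only, not for the related genes.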

Additional observations from a re-analysis of the deposited data

Results flagged for a closer look

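Chac1 was the only member whose ethanol effect differed between the genotypes by limma's test of that difference. The log2 rise was 1.18 ± 0.095 (SE) in KO and 0.32 ± 0.095 in WT, a difference of 0.87 ± 0.13 (limma adjusted p = 0.00863). Computed from the A arrays of all groups it was 0.74, and from the B arrays 0.99. This split follows the letters, which were not treated as pairs. Over the alternatives the adjusted p ran from 0.00582, without array B of ethanol-treated KO, to 0.729, with both B ethanol arrays taken as untreated, and it was 0.0739 with a variance prior without a trend.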

How the results depend on the processing

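For the 10 members in 5 contrasts, 50 values, 1040 alternatives were computed with limma, of which 935 kept direction and side of the threshold, 50 lost a call, 21 gained one and 34 changed sign. Leaving out 1 array moved the number of called members between 1 and 2 for ethanol in WT (2 without array A of untreated WT), 4 and 7 for ethanol in KO (4 without array A of untreated KO), 5 and 7 for KO against WT without ethanol, 7 and 8 with ethanol, and 0 and 3 for the difference between the ethanol effects (0 without array A or B of untreated KO, where 4 and 3 members had an unadjusted p under 0.05, and 3 without array B of ethanol-treated KO). For that difference the number was 2 with an offset of 64, 3 in the top 30% of probe sets, 0 with a variance prior without a trend (3 at an unadjusted p under 0.05), 2 with the replicate block and 2 with the B ethanol arrays left out. Over all tested probe sets that difference gave 1061 calls in the main fit. Such calls numbered 1118 with an offset of 64, 1427 in the top 30%, 85 with a variance prior without a trend and 1241 with the replicate block. Taking both B ethanol arrays as untreated gave 0 called members for ethanol in WT, 0 in KO, 1 for KO against WT with ethanol and 0 for the difference, and at an unadjusted limma p under 0.05 the 3 zeros stayed 0. The cause of these changes was not tested.

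Sign changes concerned values that were not called, except Trib3 in KO against WT with ethanol on its other probe set. Under trimmed-mean scaling Atf4 after ethanol in KO was -0.14, Trib3 in KO against WT without ethanol -0.0071, and the differences of the ethanol effects -0.053 for Atf4 and 0.012 for Sesn2. The last was 0.0063 with an offset of 64. With the B ethanol arrays left out Nupr1 after ethanol in KO was 0.11 and the Ddit3 difference 0.090. With those arrays counted as untreated, ethanol in WT gave 0.0051 for Atf4 and -0.25 for Nupr1, ethanol in KO -0.069 for Psat1 and 0.40 for Nupr1, and the differences were 0.18 for Ddit3 and 0.65 for Nupr1. With spike-in class as a term Atf4 after ethanol in KO was -0.0092, Trib3 without ethanol -0.0054 and the Sesn2 difference 0.025. On other probe sets ethanol in WT gave 0.27 for Atf4, 0.074 for Asns, -0.39 for Sesn2 and 0.26 for Psat1, KO against WT with ethanol gave -0.032 for Trib3, and the differences were -0.18 for Atf4, -0.29 for Trib3, 0.41 for Sesn2 and -0.14 for Psat1. Leaving out 1 array gave ranges through 0 of -0.26 to 0.053 for the Ddit3 difference, -0.14 to 0.13 for the Sesn2 difference, -0.11 to 0.14 for Trib3 in KO against WT without ethanol, -0.0073 to 0.080 for Atf4 after ethanol in KO and -0.89 to 0.11 for Nupr1 after ethanol in KO.

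The same-letter arrays of 2 groups had deviations from their group means that correlated at 0.022 to 0.30, so the letters were not treated as pairs, and the replicate block called Psat1 in KO against WT with ethanol (-0.32, limma adjusted p = 0.0234) and Trib3 for the difference of the ethanol effects (0.58, adjusted p = 0.0458) beside the members called without it. Over all tested probe sets the calls, 1105 for ethanol in WT, 4394 in KO, 6394 for KO against WT without ethanol, 5770 with ethanol and 1061 for the difference, ran from 274 to 2094, 1643 to 7507, 3993 to 8137, 3298 to 7547 and 195 to 4397 with 1 array left out. With both B ethanol arrays taken as untreated they were 0 (752 at an unadjusted p under 0.05), 380, 4976, 1367 and 0 (2401), and with these arrays left out 7390 for ethanol in KO and 3262 for the difference. Trimmed-mean scaling moved the median of all tested probe sets by 0.11 in KO against WT with ethanol, with 3110 higher and 2725 lower calls against 2777 and 2993. Of 122 calls on related genes, the 85 with the smallest adjusted p in each list and contrast or on a kinase were followed, and 43 of these held in every alternative other than the relabelled arrays. Other probe sets of the related genes were not among these alternatives. Comparing groups alone gives no difference of ethanol effects, and leaving out the dim arrays left only ethanol in WT, with 1 called member, and KO against WT with ethanol, with 8, where ethanol-treated KO is array B alone and is assumed to vary like the other groups. Dim probe sets limit Ddit3 and Atf4 to the probe sets above the filter.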
